A study of Mus musculus with 14 samples.

Results

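The subcortical maternal complex is a protein assembly that the oocyte builds and hands to the embryo, and the transcripts of 8 of its mouse genes were followed here through the 2-cell stage: Nlrp5, Ooep, Tle6, Khdc3, Padi6, Zbed3, Nlrp2 and Nlrp4f. Members were chosen by name, as the rows of the count table that carry these symbols, and all 8 were found among 56923 genes. The study asked whether lactate is needed for activation of the embryo's own genome at the 2-cell stage. RNA-seq counts were used from 14 libraries of 5 embryos each, with 2 libraries for each of 7 conditions. No oocyte or zygote library was analysed here, and the data hold RNA levels, not protein.

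All embryos came from superovulated ICR mice. Early 2-cell embryos were collected at 30 h and late 2-cell embryos at 54 h after the hCG injection. In the groups called G&N and G&N-L, culture from 24 h held 5 µM Gne140, a drug that blocks the lactate dehydrogenases LDHA and LDHB, together with 50 µM NMN, a precursor of NAD+. The G&N medium held 10 mM lactate and the G&N-L medium held 0 mM. The G&N-L + Lac-CoA group was late 2-cell only and had the same Gne140 and NMN. It had 1 mM lactyl-CoA injected into zygotes kept without lactate. The H3K18R group was injected at 14 h with mRNAs for 3 histone H3 variants in which lysine 18 was changed to arginine, and the WT group with the unchanged H3 mRNAs. No inhibitor, NMN or lactate level is given for these H3 mRNA groups. Every early library came from inhibitor-treated embryos. The deposited labels name only GNE140 for early G&N, name no missing lactate for early G&N-L, write CoA where the study has Lac-CoA, and the count columns of the mutant read K18A. The methods state 3 replicates per group, while 2 libraries per group were analysed here, and since nothing says that these were separate cultures, p-values measure only the spread between libraries.

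The complex lies under the cell membrane of the oocyte and is kept out of the contact between sister cells after cleavage. Females that lack Nlrp5, Ooep, Tle6 or Padi6 give embryos that stop early in cleavage, which is why these are called maternal effect genes. Their transcripts are made in the growing oocyte, stored, and removed while the embryo takes over transcription, whereas the proteins last longer. Stored oocyte messages often carry cytoplasmic polyadenylation elements near the 3′ end, short U-rich motifs that govern how long the poly(A) tail is kept.

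Near the 3′ end of the annotated transcript, 30 bases are shown for the 2 genes with the lowest stage estimates and the 2 genes with the highest late levels, which were picked by those values, so that the letters can be read beside the levels. For Ooep they are the last 30 bases, and for the others a window around the poly(A) signal that stops short of the end. They were read 5′ to 3′ from the canonical GENCODE transcripts on GRCm39 (mm39), and capitals mark a poly(A) signal (AATAAA or ATTAAA) and a cytoplasmic polyadenylation element (TTTTAT or TTTTAAT).
Nlrp5: tagcaagaatgaAATAAAcacagcatttag
Ooep: aactcaggaccacaggctatgagtagcata
Zbed3: ttttttttTTTTAATAAAcTTTTATttatc
Nlrp4f: tttgtgTTTTATATTAAAgaatagtagtca

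These 3′ untranslated windows lie at chr7:23141312-23141341 on the plus strand for Nlrp5, chr9:78283391-78283420 on the minus strand for Ooep, chr13:95474317-95474346 on the plus strand for Zbed3 and chr13:65324936-65324965 on the minus strand for Nlrp4f. Within the last 100 bases of the mRNA strand, Zbed3 held 2 elements, 1 of which overlapped the poly(A) signal, and Nlrp4f held 1 that abutted it. The other 6 members, including the 4 not shown, held 0 in that window, so that 2 of 8 members held one. Of 21624 protein-coding canonical transcripts, 15.9% held at least 1 such element and 70.7% held a poly(A) signal in the last 50 bases. Ooep was the only member without either signal in its canonical end, whose 3′ untranslated region is 1446 bases long. A match describes letters in the annotation, and which ends the embryos used was not measured.

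The members sit at separate loci of GRCm39: Nlrp5 at chr7:23085314-23141347, Nlrp2 at chr7:5301546-5354034, Ooep at chr9:78283366-78286030, Khdc3 at chr9:73009118-73011724, Tle6 at chr10:81426738-81436907, Padi6 at chr4:140454666-140469954, Zbed3 at chr13:95460111-95474349 and Nlrp4f at chr13:65324923-65353802. Khdc3 shares 38.4% of its exon bases with Gm20509 on the same strand. Gm20509 had 0 counts in all 14 libraries, and reads in the shared bases may have been left uncounted, so the level of Khdc3 is uncertain. Tle6 shares 14% of its exon bases with Tle2 on the opposite strand, whose highest count was 14. Nlrp2 shares 2.99% with Gm18757, whose highest count was also 14. Nlrp4f belongs to a family of close relatives between which reads can be shared, so its level is uncertain too.

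Library totals ran from 20350427 to 61275465 counts, and the member with the lowest count in any library had 41. The 4 libraries of the H3K18R and WT groups stood apart from the rest, with 10.6% to 12.2% of counts from mitochondrial genes against 2.17% to 3.85% in the early and 5.65% to 6.84% in the other late libraries. Markers went with the labelled stage. The summed level of 24 oocyte genes was 46856 to 60880 CPM (the depth-scaled unit of counts, here on TMM-normalised library sizes) in the early and 10488 to 36063 CPM in the late libraries, while that of 14 measured 2-cell genes such as Zscan4d was 210 to 346 CPM and 1351 to 3316 CPM. By stage 8 of these 14 were called higher and 1, Sp110, lower with lactate, and 9 higher without. Of all genes 8.18% were called higher and 5.47% lower with lactate, and 5.97% higher without. Genes of cumulus cells, which surround the oocyte, summed to 31.7 to 43.8 CPM in the early and 7.18 to 44.2 CPM in the late libraries over 17 genes, with Amh and Inhba at 0 throughout and Tnfaip6 called higher late in both media. Sperm genes summed to 15.5 to 23.6 CPM and 2.75 to 11.6 CPM over 8 genes, with Tnp1, Smcp and Acr at 0 throughout and 0 called by stage. The part of these shifts in the results below was not tested.

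Together the 8 transcripts reached 8201 ± 2335 CPM (SD, n = 2, as for all levels here) in early G&N embryos and 6598 ± 654 CPM in early G&N-L embryos. In late embryos the sum was 4497 ± 142 CPM in G&N-L, 3756 ± 259 CPM in G&N, 2909 ± 139 CPM in G&N-L + Lac-CoA, 1452 ± 802 CPM in H3K18R and 727 ± 242 CPM in WT. The sum in every late library, at most 4597 CPM, was below the sum in every early library, at least 6136 CPM. Each library held 5 embryos. CPM is a share of a library's counts, so less of these transcripts and more of others cannot be told apart. Since it is not given whether cDNA was primed on poly(A) tails, loss of the tail and loss of the transcript cannot be told apart either.

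**Figure D1:**
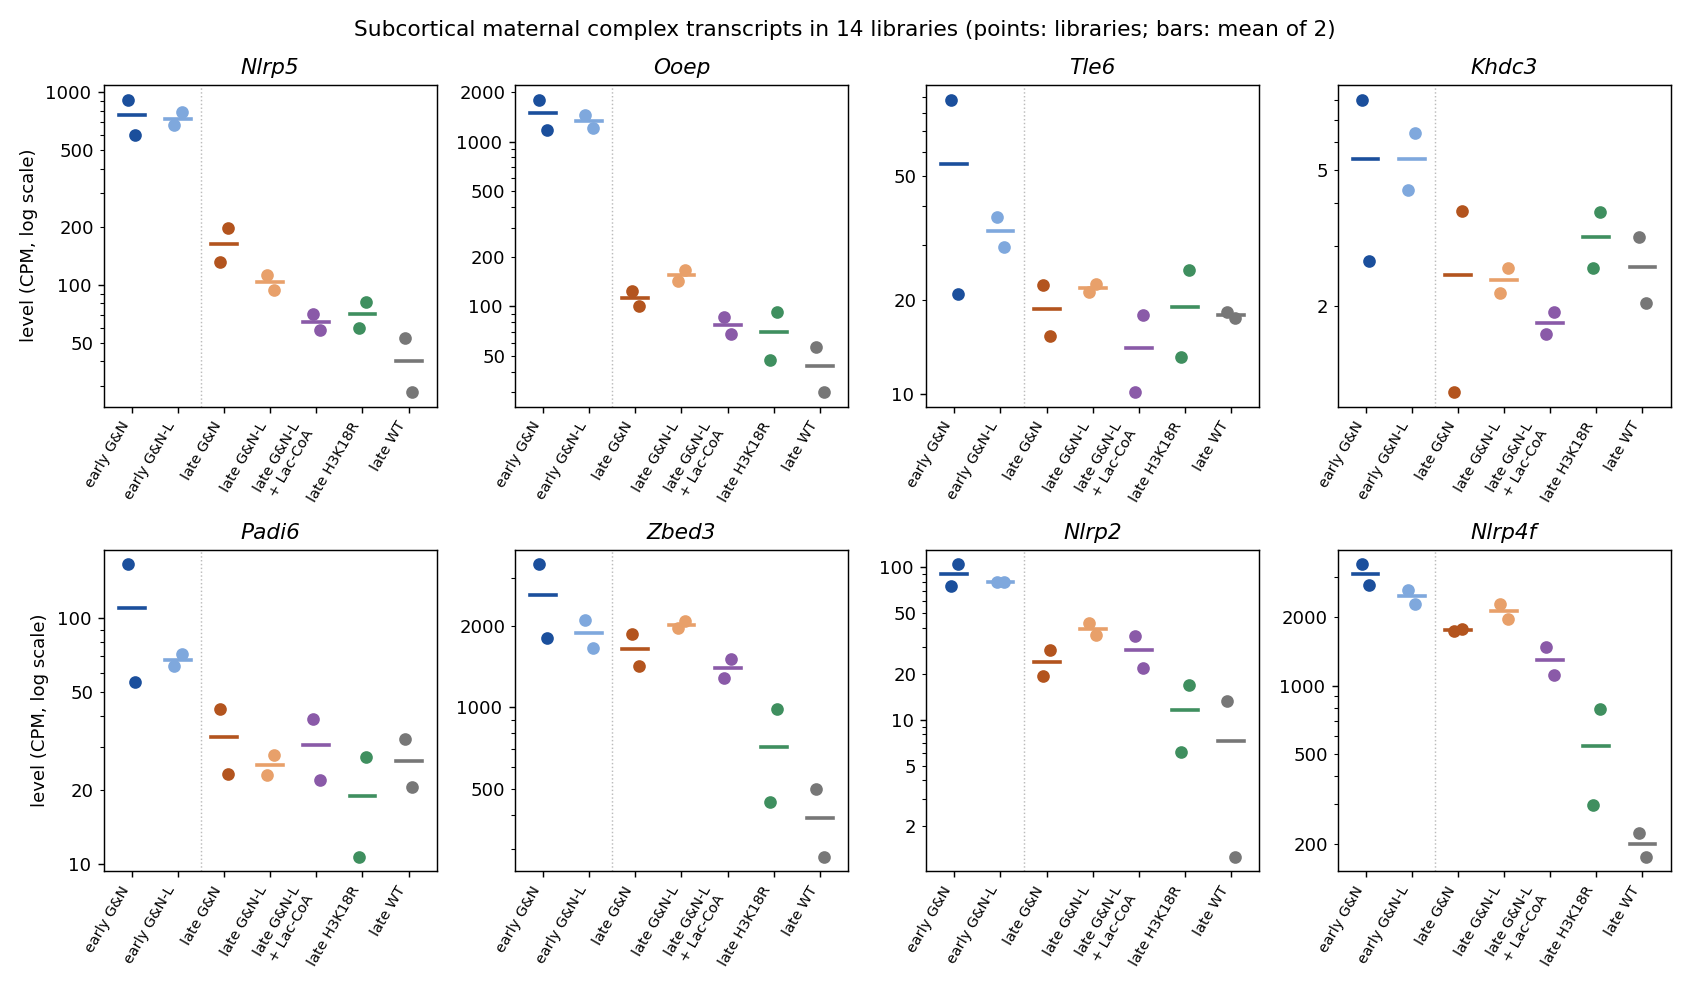
Level of each of the 8 transcripts in the 14 libraries, in CPM on a log axis that differs between panels; points are libraries, bars the mean of 2, and the dotted line parts early from late 2-cell embryos. Nlrp5, Ooep, Padi6, Nlrp2 and Nlrp4f lie lower in every late library than in every early one. For Nlrp4f the gap is narrow, with at most 2284 CPM late and at least 2295 CPM early. Zbed3 and Nlrp4f stay at or above 1114 CPM in the 6 late libraries of inhibitor-treated embryos and lie at or below 983 CPM in the 4 libraries given H3 mRNA.

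Levels between genes were compared per kilobase of annotated exon. In early G&N embryos Zbed3 was highest, at 974 CPM per kilobase, followed by Nlrp4f at 800.2 and Ooep at 679.7 CPM per kilobase. Nlrp5 lay at 156, Padi6 at 43.7, Nlrp2 at 25.6, Tle6 at 17.7 and Khdc3 at 2.60 CPM per kilobase. The highest and lowest members thus differed 374-fold by this measure, in which the lowest was Khdc3, whose level is uncertain as given above. The measure takes reads to cover the annotated exons evenly, which was not tested. In late G&N embryos the order was unchanged and the values were 617 CPM per kilobase for Zbed3, 453 for Nlrp4f and 51.0 for Ooep. In late WT embryos Zbed3 was at 146, Nlrp4f at 51.6 and Ooep at 19.8 CPM per kilobase, and Padi6, at 10.4, passed Nlrp5, at 8.33.

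The make-up of the 8 transcripts does not depend on library scaling. Ooep made up 17.9% to 20.5% of the members' counts in the 4 early libraries and 2.42% to 6.31% in the 10 late ones. Nlrp5 made up 9.13% to 12.8% early and 2.07% to 6.74% late, so neither range overlapped. Zbed3 went the other way, from 27.0% to 34.3% early to 39.8% to 55.4% late. The shares of the other 5 members overlapped between the stages, and that of Nlrp4f spanned 34.8% to 42.6% early and 24.98% to 49.96% late. The members' counts in a library numbered 18025 to 501969, and amplified reads are not independent molecules.

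**Figure D2:**
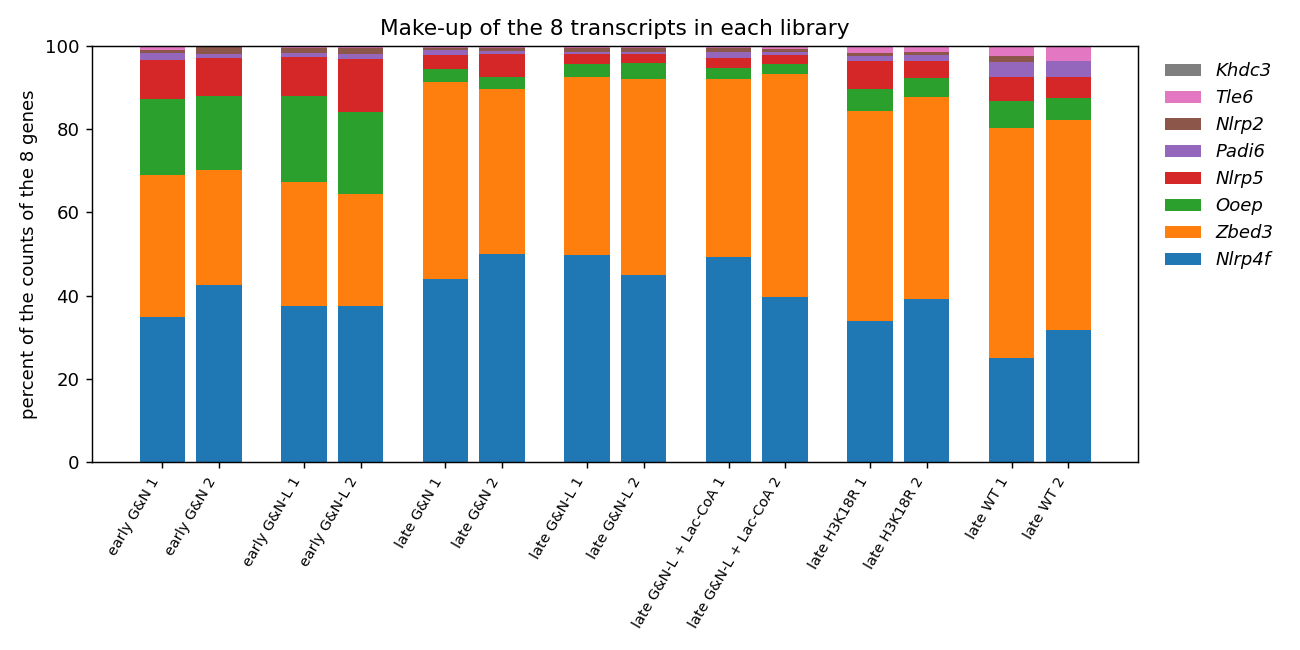
Share of each gene in the counts of the 8 genes, in percent, as 1 stacked bar per library. Ooep and Nlrp5 narrow from the early to the late libraries and Zbed3 widens, and in the late WT libraries Nlrp4f holds 24.98% and 31.7%.

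The change from the early to the late 2-cell stage was compared within the same medium. With lactate, 3 of 8 members fell at an adjusted p under 0.05 (edgeR's quasi-likelihood test, Benjamini-Hochberg over 19443 genes): Ooep, Nlrp5 and Nlrp2. Of all genes tested, 5.47% were called lower. The median log2 fold change of the 8 members was -1.66, beside 0.08 over all genes, and all 8 estimates were negative (48.2% of all genes had that sign). Without lactate, 4 of 8 members fell (Ooep, Nlrp5, Padi6 and Nlrp2), where 5.87% of 18604 genes were called lower, with a member median of -1.16 beside 0.15. No member rose in either comparison, where 8.18% and 5.97% of all genes were called higher. In the scale of all 14 libraries, groups did not overlap and lay lower late for 5 of 8 members with lactate (28.9% of all genes) and 7 of 8 without (26.1%).

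Ooep, a small KH-domain protein at the core of the complex, fell most. It stood at 1800 and 1172 CPM in the early G&N libraries and at 123 and 99.7 CPM in the late ones. Without lactate it stood at 1449 and 1213 CPM early and at 143 and 166 CPM late. The 4 early values were all at or above 1172 CPM and no late value of any group exceeded 166 CPM. The fitted log2 fold change was -3.79 ± 0.30 (SE) with lactate, 13.8-fold lower, and -3.17 ± 0.16 without, 8.97-fold lower, with adjusted p = 0.00607 and 0.00489 in edgeR's quasi-likelihood test. Its call held with each library left out in turn, with adjusted p up to 0.0475 with lactate and 0.0345 without.

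Nlrp5, the NLR-family protein also known as MATER and a core part of the complex, followed Ooep. With lactate it measured 912 and 598 CPM early against 131 and 196 CPM late. Without lactate it measured 670 and 785 CPM early against 113 and 93.4 CPM late. No late library exceeded 196 CPM, whereas every early one was at or above 598 CPM. The log2 fold change was -2.26 ± 0.32 with lactate (4.80-fold lower, adjusted p = 0.0152) and -2.88 ± 0.21 without (7.37-fold lower, adjusted p = 0.00531), both by edgeR's quasi-likelihood test.

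Nlrp2, another NLR-family protein with a maternal effect, fell from a level near 80 CPM. The early libraries held 75.5 and 104 CPM with lactate and 79.1 and 79.6 CPM without, and the late ones 19.3 and 28.7 CPM with and 42.8 and 35.7 CPM without. The groups did not overlap in either medium. Its log2 fold change was -2.00 ± 0.39 with lactate (adjusted p = 0.0332) and -1.08 ± 0.22 without (adjusted p = 0.0408) in edgeR's quasi-likelihood test.

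Padi6, a peptidylarginine deiminase family member needed for the fibrous lattices of the oocyte cytoplasm, was called without lactate only, and the difference between the media was not shown (interaction log2 0.23 ± 0.66, edgeR's quasi-likelihood test across all genes, unadjusted p = 0.736). It measured 64.1 and 71.7 CPM early and 22.9 and 27.8 CPM late without lactate, a log2 fold change of -1.49 ± 0.24 (adjusted p = 0.0254). With lactate it measured 166 and 55.2 CPM early and 42.7 and 23.1 CPM late, a log2 fold change of -1.77 ± 0.57 (adjusted p = 0.0871). Without the first early G&N library, which held 166 CPM, the estimate with lactate was -0.79.

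The first early G&N library also had the highest levels of Tle6 and Khdc3, and 7 of 8 members were higher there than in the second, by 4.22-fold for Tle6. Tle6, a member of the Groucho family of co-repressors that binds the core of the complex, measured 88.4 and 21.0 CPM in early G&N, 36.9 and 29.6 CPM in early G&N-L, and 10.1 to 24.99 CPM in the late libraries. Its stage change was -1.55 ± 0.66 with lactate and -0.66 ± 0.27 without on the log2 scale, with adjusted p = 0.170 and 0.165 by edgeR's quasi-likelihood test. Without that library the estimate with lactate was -0.21. Khdc3, also called FILIA and linked to genome stability, was the lowest member, with 2.71 to 8.01 CPM early and 1.12 to 3.79 CPM late. Its ranges overlapped, and its estimates of -1.15 ± 0.99 and -1.24 ± 0.72 did not pass the test (adjusted p = 0.487 and 0.321). For Tle6 and Zbed3 with lactate, the groups overlapped in the scale of all 14 libraries and did not when only the 4 libraries of the comparison were scaled together.

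Zbed3 and Nlrp4f had the smallest stage estimates in both media. Zbed3, a BED-type zinc finger protein that associates with the complex and acts in spindle placement, measured 2105 and 1656 CPM early and 1969 and 2075 CPM late without lactate. Those ranges overlapped, with a log2 fold change of 0.05 ± 0.14 (edgeR's quasi-likelihood test, adjusted p = 0.873). With lactate it measured 3376 and 1808 CPM early and 1865 and 1421 CPM late, a log2 fold change of -0.70 ± 0.33 (adjusted p = 0.201). Nlrp4f, an NLR-family protein of the oocyte that associates with the complex, measured 3426 and 2788 CPM early and 1734 and 1785 CPM late with lactate, -0.89 ± 0.22 on the log2 scale (adjusted p = 0.0561). Without lactate it measured 2651 and 2295 CPM early and 2284 and 1972 CPM late, -0.27 ± 0.14 (adjusted p = 0.266). The largest of these 4 fitted falls was 1.85-fold, for Nlrp4f with lactate, against 13.8-fold for Ooep.

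These stage calls rested on few libraries. Without the first early G&N library the member median with lactate was -0.76, beside 0.62 over all genes, and all 8 estimates stayed negative. With lactate, leaving out the first or the second late G&N library lost the calls of Nlrp5 and Nlrp2 and kept that of Ooep. Calls over all genes were also fewer in those fits, which hold 1 library in a group. With each library left out in turn, estimates ran from -3.97 to -3.45 for Ooep and -2.59 to -1.94 for Nlrp5. For Nlrp2 they ran from -2.32 to -1.61. Leaving out the second early G&N library put Padi6 and Tle6 past the threshold (adjusted p = 0.0343 and 0.0355) and Nlrp2 short of it (adjusted p = 0.0792). Without lactate, leaving out any 1 of the 4 libraries kept the calls of Ooep and Nlrp5 and lost those of Padi6 and Nlrp2. Calls over all genes were again fewer. The estimates then ran from -1.62 to -1.34 for Padi6 and -1.20 to -0.90 for Nlrp2.

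**Figure D3:**
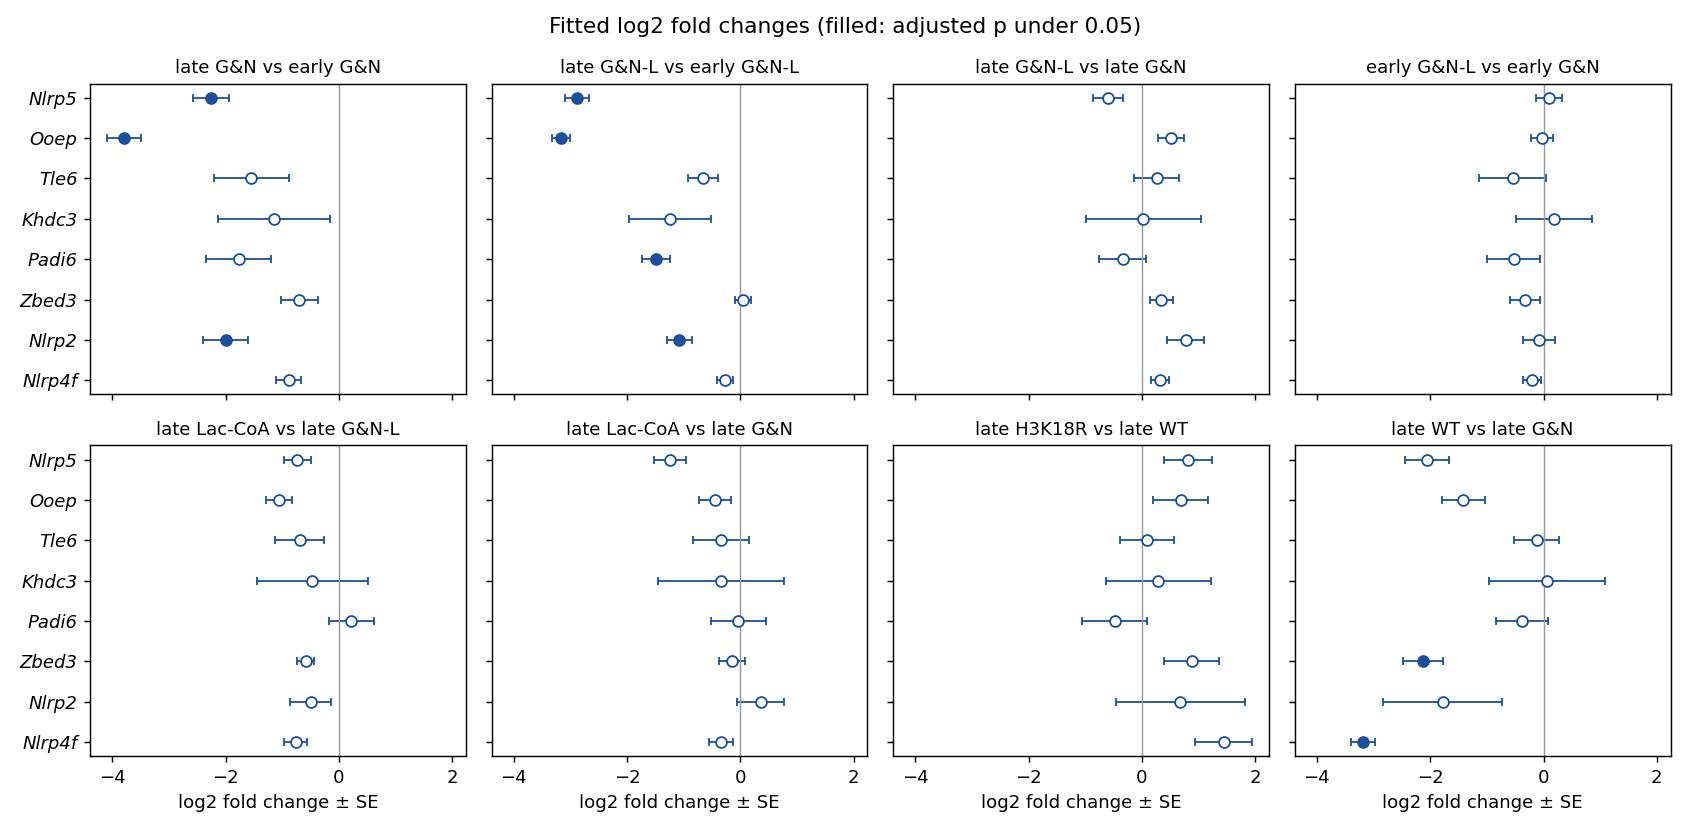
Fitted log2 fold change of each gene in 8 comparisons, named above each panel as first against second group; whiskers are the SE and filled points passed an adjusted p of 0.05. The 9 filled points are Ooep, Nlrp5 and Nlrp2 by stage with lactate, these and Padi6 by stage without, and Zbed3 and Nlrp4f in WT against G&N embryos.

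Removal of lactate was tested at each stage. In late embryos 0 of 8 members passed the adjusted threshold in edgeR's quasi-likelihood test, as 0% of 19481 genes did, and 0 of 8 passed an unadjusted p of 0.05, where 7.65% of genes were lower and 4.32% higher. DESeq2 also called 0 of 8 members, but 916 genes. The member median was 0.29 beside -0.02 over all genes (0.44 beside 0.14 without the first late G&N library), with 6 estimates above 0 (49% of all genes) and 2 below. The 24 oocyte genes had a median of 0.36, with 18 above 0, and 9 other oocyte Nlrp genes had 0.47, with 9 above 0. Nlrp4f, Zbed3, Ooep and Nlrp2 were higher in both lactate-free libraries than in both fed ones (18.6% of all genes lay higher without overlap), and Nlrp5 was lower (24.9%). The largest estimate was 0.77 ± 0.33 for Nlrp2 (unadjusted p = 0.0627, adjusted p = 0.460), and Nlrp5 stood at -0.61 ± 0.26 (unadjusted p = 0.0655, adjusted p = 0.469). These 2 NLR genes thus moved apart by estimate, but neither difference passed the test.

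In early embryos 0 of 8 members passed the adjusted threshold among 17343 genes, of which 0% were called, and 0 of 8 passed an unadjusted p of 0.05 in edgeR, where 2.7% of genes were lower and 1.82% higher. DESeq2 called 0 members and 37 genes. The median was -0.14 beside -0.01, and that of 23 oocyte genes tested was -0.18. Nlrp4f was the only member without overlap, lower without lactate (21.3% of all genes), at -0.21 ± 0.16. Estimates ran from -0.54 for Tle6 to 0.19 for Khdc3, and their direction rested on the first early G&N library. Without it 6 of 8 were above 0 and the median was 0.26, beside 0.09 over all genes, with Tle6 at 0.68, Padi6 at 0.33, Ooep at 0.20 and Zbed3 at 0.07.

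The interaction of stage and lactate was fitted over 8 libraries. No member passed the adjusted threshold in edgeR's quasi-likelihood test, as 0% of 22287 genes did, and 1 passed an unadjusted p of 0.05 (3.57% of genes were higher at that level), namely Nlrp4f (0.57 ± 0.23, unadjusted p = 0.0411, adjusted p = 0.650). DESeq2 also called 0 members, and 224 genes. The estimate was negative for Nlrp5 (-0.67 ± 0.38) and Khdc3 (-0.15 ± 1.25) and positive for the other 6 members (52% of all genes), with a median of 0.57 beside 0.06. Without the first early G&N library 4 were positive and 4 negative, with a median of -0.0407 beside -0.17. Without the second early G&N library 7 were positive, with a median of 0.77 beside 0.09. Over all 8 libraries 19 of 24 oocyte genes were positive, with a median of 0.35.

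Lactyl-CoA was given to embryos kept without lactate, and these were compared with embryos kept without lactate alone. The group that received it was injected, and no sham-injected lactate-free library was analysed here, so the agent and the injection cannot be told apart. By edgeR's quasi-likelihood test 0 of 8 members passed the adjusted threshold, as 0% of 19610 genes did. At an unadjusted p of 0.05, 4 of 8 were lower, where 6.38% of all genes were. The member median was -0.64 beside -0.01. The 24 oocyte genes had a median of -0.48, with 20 lower, and 9 other oocyte Nlrp genes had -0.72, with 9 lower. Of the 8 members 7, all but Padi6, were lower in both injected libraries than in both others (22% of all genes). DESeq2 called 3 of 8 lower, namely Ooep, Zbed3 and Nlrp4f, where it called 514 of 19610 genes lower.

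Ooep measured 85.9 and 67.9 CPM with lactyl-CoA against 143 and 166 CPM without, a log2 fold change of -1.05 ± 0.23 (2.07-fold lower, edgeR unadjusted p = 0.00513, adjusted p = 0.294). Zbed3 measured 1284 and 1507 CPM against 1969 and 2075 CPM, -0.59 ± 0.15 (unadjusted p = 0.00962, adjusted p = 0.294). Nlrp4f measured 1482 and 1114 CPM against 2284 and 1972 CPM, -0.76 ± 0.20 (unadjusted p = 0.0124, adjusted p = 0.301). All 3 were lower without overlap, and their adjusted p by edgeR and DESeq2 fell on opposite sides of the threshold, with 0.00296 for Ooep, 0.0135 for Nlrp4f and 0.0224 for Zbed3 in DESeq2.

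Nlrp5 measured 70.3 and 58.3 CPM with lactyl-CoA, 113 and 93.4 CPM in lactate-free and 131 and 196 CPM in lactate-fed embryos, so it was lowest in the injected group of the 3. Its log2 fold change was -0.73 ± 0.24 against lactate-free embryos (edgeR unadjusted p = 0.0264, adjusted p = 0.310) and -1.25 ± 0.28 against lactate-fed ones (unadjusted p = 0.00527, adjusted p = 0.500). Against the fed group it was the only member past an unadjusted p of 0.05 (4.1% of 19613 genes were lower at that level and 0% at the adjusted one). DESeq2 called it (adjusted p = 0.00402), where 203 of 19613 genes were called lower. The member median in that comparison was -0.34 beside 0.01 (-0.16 beside 0.08 without the first late G&N library), and Ooep, Nlrp5 and Nlrp4f were lower without overlap (22.2%). The 24 oocyte genes had a median of -0.03 there. Both comparisons use the same 2 injected libraries.

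In the H3 mRNA groups 0 of 8 members passed the adjusted threshold between H3K18R and WT by edgeR's quasi-likelihood test, where 1 of 17704 genes was called higher (0.00565%) and 0% lower. The estimates of 7 of 8 were positive (51.4% of all genes), with a median of 0.68 beside 0.03. These rested on single libraries: without the second H3K18R library 4 were positive and 4 negative with a median of 0.0590, beside -0.0960 over all genes, and without the second WT library 5 were positive with a median of 0.17, beside 0.16. Leaving out the first H3K18R or the first WT library gave medians of 1.05 and 1.30, beside -0.06 and 0.17 over all genes. In the fit of all 4 libraries, 17 of 23 oocyte genes were higher, with a median of 0.54. Of 9 other oocyte Nlrp genes 9 were higher, with a median of 0.77. Nlrp4f measured 299 and 789 CPM in H3K18R against 224 and 176 CPM in WT, which gave a fitted log2 difference of 1.44 ± 0.50 (unadjusted p = 0.0301, adjusted p = 0.734), and 0.58 without the second H3K18R library. It was the only member past an unadjusted p of 0.05 (3.77% of genes were higher at that level) and DESeq2 called 0 members and 118 genes. Nlrp5, at 59.6 and 81.9 CPM against 52.9 and 27.8 CPM, was the other member higher without overlap (19.5%).

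The libraries within each of these groups differed for every member. In H3K18R all 8 members were higher in the second library than in the first, by a median of 2.08-fold and a summed level of 2019 against 884 CPM. All 8 were likewise higher in the first WT library than in the second, by up to 10.4-fold for Nlrp2, which measured 13.1 and 1.26 CPM there. The estimate for Nlrp2 between H3K18R and WT was 0.68 ± 1.14 and turned negative without the second H3K18R library (-0.22) or without the second WT library (-0.20).

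The late WT embryos were also set beside the late G&N embryos, which had lactate. These groups differ in the mRNA injection and in the mitochondrial share given above. The inhibitor and NMN are given for G&N only, and the parts of all these cannot be told apart. By edgeR's quasi-likelihood test 2 of 8 members were lower in WT, Nlrp4f and Zbed3, where 2.68% of 18986 genes were called lower. The member median was -1.60 beside -0.16 over all genes, and -0.96 beside -0.44 without the second WT library. In the levels, 5 members were lower without overlap (32.4% of genes), namely Nlrp5, Ooep, Zbed3, Nlrp2 and Nlrp4f.

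Nlrp4f stood at 224 and 176 CPM in WT and at 1734 and 1785 CPM in G&N embryos, 9.06-fold lower, with a log2 fold change of -3.18 ± 0.21 (adjusted p = 0.0413 by edgeR's quasi-likelihood test) and the rank 3 by p among all genes. Zbed3 stood at 497 and 281 CPM against 1865 and 1421 CPM, 4.38-fold lower (-2.13 ± 0.35, adjusted p = 0.0437). So the 2 genes that stayed high in the treated late embryos were both much lower in the WT libraries. Nlrp5 was lower by -2.06 ± 0.39 (adjusted p = 0.0542) and Ooep by -1.41 ± 0.38 (adjusted p = 0.0896), short of the threshold. Tle6, Khdc3 and Padi6 had estimates of -0.12, 0.06 and -0.38 and overlapped. The calls were lost without the first G&N library or either WT library, and that of Nlrp4f alone stayed without the second G&N library. Calls over all genes were likewise lost or fewer in these fits, which hold 1 library in a group. Across those fits the estimate for Nlrp4f ranged from -3.36 to -3.02. DESeq2 called 4 of 8 members lower, where it called 2103 of 18986 genes lower.

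The 7 conditions were ordered for each gene by its own means. In single comparisons 32.7% to 64.6% of all genes had groups apart in either direction, and the share with a whole order apart was not counted. For Nlrp4f no neighbouring pair of groups overlapped, though lactate removal did not pass the test (edgeR's quasi-likelihood test, unadjusted p = 0.237 early and 0.0961 late). Its order was early G&N, early G&N-L, late G&N-L, late G&N, G&N-L + Lac-CoA, then H3K18R and last WT. The means were 3107, 2473, 2128, 1759, 1298, 544 and 200.3 CPM. The means of Ooep ran in the same order, but its early groups overlapped, as did neighbours among its last 3. Nlrp5 had late G&N above late G&N-L, the only pair of neighbours among the treated late groups in which it reversed the order of Ooep, and overlapped only between the early groups and between H3K18R and G&N-L + Lac-CoA. Nlrp2 kept its early groups above late G&N-L without overlap, late G&N-L above G&N-L + Lac-CoA, and late G&N above H3K18R, while its other neighbours overlapped. For Zbed3 only G&N-L + Lac-CoA and H3K18R were apart. For Tle6 and Padi6 the sole neighbours apart were an early and a late group, and for Khdc3 only late G&N-L and G&N-L + Lac-CoA were apart.

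The profiles of the members were compared by the root mean square difference of log2 levels over the 14 libraries, each gene centred on its own mean, where smaller is more alike. Libraries of a stage share that stage, so this is a description. The closest pair was Zbed3 and Nlrp4f (0.48), followed by Nlrp5 and Ooep (0.55), Tle6 and Khdc3 (0.56) and Tle6 and Padi6 (0.58). The farthest pair was Ooep and Khdc3 (1.59). Nlrp2 lay nearest to Nlrp4f (0.71). 

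**Figure D4:**
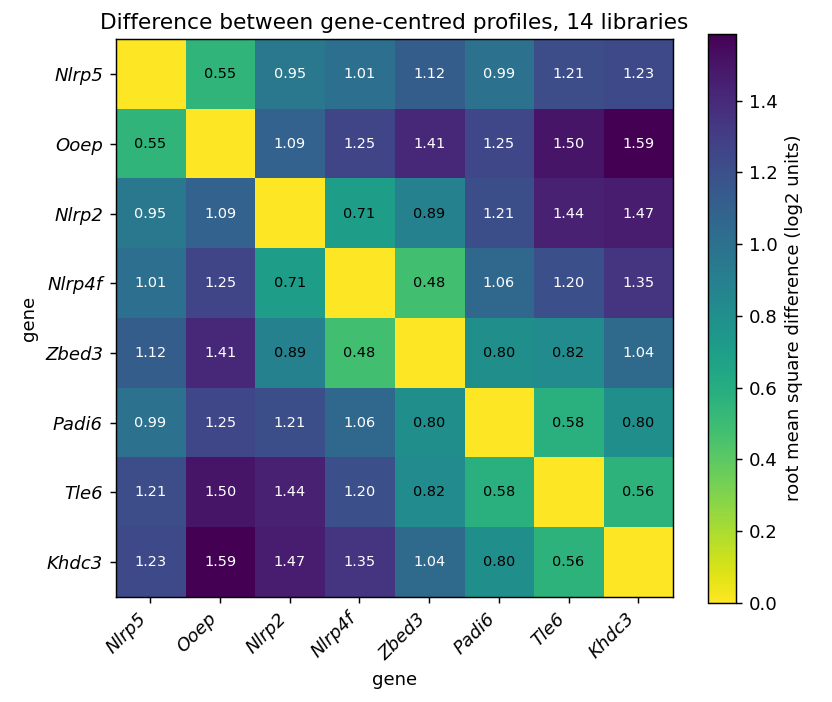
Root mean square difference, in log2 units, between the centred profiles of each pair of genes over 14 libraries; lighter squares are more alike. Small values join Nlrp5 with Ooep (0.55), Nlrp4f with Zbed3 (0.48), and Tle6 with Khdc3 and Padi6 (0.56 and 0.58).

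Among 7680 other genes with a mean of at least 10 CPM, the 5 nearest to the mean profile of the members were Meis2, a homeobox factor (0.20), Oog2, an oocyte-specific gene (0.21), Ap3m1, an adaptor subunit of vesicle traffic (0.24), Pdlim1, an actin-linked PDZ and LIM protein (0.24), and Usp46, a deubiquitinase (0.25). These 5 are the nearest by construction. The members themselves lay 0.55 to 0.95 from that mean, and 7.80% (Zbed3) to 33.8% (Ooep) of the other genes lay nearer to it than a member did.

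Other oocyte genes of the NLR family were set beside the NLR members. Of 10 on the list (Nlrp4a to Nlrp4e, Nlrp4g, Nlrp9a to Nlrp9c and Nlrp14), 9 were tested, and Nlrp4d was at 0 throughout. With lactate 5 of 9 were called lower late (Nlrp4a, Nlrp4b, Nlrp4g, Nlrp9b and Nlrp14) and without lactate 4 of 9 (all of these but Nlrp14), with medians of -1.59 and -0.71. Of all genes 5.47% and 5.87% were called lower. The names of Nlrp4b, Nlrp4g and Nlrp9b were added after their values were seen, as were those of Cfl2, Dnmt1, Tle3, Sp110, Tnfaip6, Pabpn1l and Oas1d elsewhere. In WT against G&N embryos 8 of 9 were called lower (2.68% of all genes), with a median of -2.32, such as Nlrp9a (-3.02 ± 0.29) and Nlrp4a (-2.61 ± 0.31), both with adjusted p = 0.0413 by edgeR's quasi-likelihood test. With lactyl-CoA against lactate-free embryos 0 of 9 passed the adjusted threshold and all 9 were lower at an unadjusted p of 0.05 (6.38% of all genes), including Nlrp14 (-0.99 ± 0.28) and Nlrp9c (-0.59 ± 0.15). Reads can be shared among these close relatives, so they are not independent measurements.

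Of 21 genes whose products were listed as partners of the complex or of its members, such as cofilins, 14-3-3 proteins, Dppa3 and Uhrf1, 20 were tested in late embryos. By stage 3 were called lower with lactate (Ywhae, the cofilin Cfl2 and the DNA methyltransferase Dnmt1) and 4 without (these and Dppa3), and 0 were called higher, with medians of -0.67 and -0.32. Of all genes 5.47% and 5.87% were called lower, and 8.18% and 5.97% higher. Ywhae, a 14-3-3 protein, fell in both media (-1.34 ± 0.29 and -0.94 ± 0.19, adjusted p = 0.0409 and 0.0388 by edgeR's quasi-likelihood test). Dppa3, which protects the maternal genome from loss of methylation, was called without lactate (-1.14 ± 0.15, adjusted p = 0.0149) and not with it (-0.90 ± 0.40, adjusted p = 0.185), and the interaction of stage and lactate was -0.28 ± 0.44 (unadjusted p = 0.538, adjusted p = 0.988). In WT against G&N embryos 1 of 20 was called lower (2.68% of all genes), which was Ube2d3, a ubiquitin-conjugating enzyme (-1.32 ± 0.17, adjusted p = 0.0413), while Vdac2, a mitochondrial channel, stood at -1.53 ± 0.40 (adjusted p = 0.0856).

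Relatives of the members outside the complex were tested in the same fits. Of 16 listed (Khdc1 genes, Dppa5a, Padi1 to Padi4, Tle1 to Tle5 and Zbed4 to Zbed6), 14 were tested by stage with lactate and 11 without, and 0 were called lower. In the same fits 2 (Dppa5a and Tle3) and 1 (Dppa5a) were called higher, with medians of 0.25 and -0.10. Of all genes 5.47% and 5.87% were called lower, and 8.18% and 5.97% higher. Dppa5a, a KH-domain relative of Ooep and Khdc3, rose in both media (3.20 ± 0.34 with and 1.10 ± 0.20 without lactate on the log2 scale, adjusted p = 0.00900 and 0.0317 by edgeR's quasi-likelihood test). It was higher in WT than in G&N embryos (1.92 ± 0.21, adjusted p = 0.0413), opposite in sign to Nlrp4f and Zbed3. Khdc1b, another relative, stood at -0.65 ± 0.22 with lactate (adjusted p = 0.0996).

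Oocyte transcripts outside the complex were tested as a list, and whether it stands for maternal RNA at large was not tested. By stage, 13 of 24 were called lower with lactate and 8 of 24 without (5.47% and 5.87% of all genes), with medians of -1.15 and -0.38, and 0 were called higher. Btg4, the adaptor of the deadenylase that removes maternal messages, fell with lactate (-1.17 ± 0.26, adjusted p = 0.0427), and Ccnb1, cyclin B1, fell in both media (-1.66 ± 0.28 and -1.59 ± 0.18, adjusted p = 0.0236 and 0.0108), by edgeR's quasi-likelihood test. Tcl1 and Oosp1 stood at -0.18 each with lactate and did not pass. In WT against G&N embryos 7 of 23 were called lower (2.68% of all genes), among them Btg4 (-2.65 ± 0.17), Tcl1 (-1.93 ± 0.21) and Oosp1 (-1.32 ± 0.18), each with adjusted p = 0.0413. By estimate with lactate, Ooep, with -3.79, thus fell further than the median of this list, and Zbed3, with -0.70, less. Genes of the list called lower in that comparison included Pabpn1l (-4.17 ± 0.54) and Oas1d (-4.04 ± 0.29), which fell further than Ooep.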

How the data were processed

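RNA of 5 embryos per library was amplified as cDNA and sequenced. The authors used FastQC and Trim Galore on the reads, HISAT2 with the mm39 genome for alignment, and featureCounts for gene counts. Tool versions, strand and multimapping settings are not given in the sources used here. The deposited values are raw counts without normalization, with totals of 20350427 to 61275465 per library. A count of 0 would allow up to 3 counts, and such limits cover counting error only. Replicates differed by more than counting noise (chi-square per degree of freedom 47.8 to 195).

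The tests were run with edgeR 4.0.16 under R 4.3.3 (default filter, TMM, quasi-likelihood test, two-sided, Benjamini-Hochberg over all genes tested), each comparison on its own 4 libraries, the interaction on 8. With 2 against 2 libraries the smallest two-sided p of an exact permutation test is 0.333. Levels are CPM scaled by TMM over 14 libraries, and profiles used a prior count of 2. DESeq2 1.42.0, 2 other scalings, 2 other filters, 1 fit of all 14 libraries, a replicate block and leaving out each library were alternatives. The fit was tested on simulated data. Coordinates and transcript ends are from GENCODE vM39.

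The members and gene lists were chosen with earlier results of these data known. Named were all 8 members, genes among the 4 of highest mean CPM in each other list, and the 5 genes nearest to the members' mean profile. Cumulus and sperm genes are given as sums.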

Additional observations from a re-analysis of the deposited data

Results flagged for a closer look

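Nlrp4f was flagged because its groups with and without lactate did not overlap at either stage and lay in opposite directions. In early embryos it was lower without lactate (2651 and 2295 CPM against 3426 and 2788 CPM), as were 21.3% of all genes without overlap. In late embryos it was higher (2284 and 1972 CPM against 1734 and 1785 CPM), as were 18.6%. Neither change passed edgeR's quasi-likelihood test (unadjusted p = 0.237 early and 0.0961 late). The difference between these changes, tested as the interaction of stage and lactate in edgeR's quasi-likelihood test, was 0.57 ± 0.23 on the log2 scale, with an unadjusted p of 0.0411 and an adjusted p of 0.650, so it did not pass the correction over 22287 genes. With DESeq2, its size factors, 10 counts required or all 14 libraries fitted, 0 members passed an unadjusted p of 0.05 in this interaction. With library totals, no filter or the replicate block, 1 did.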

How the results depend on the processing

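Counts of members called moved by over 1.5 times under some settings. DESeq2 called 3 with lactyl-CoA against lactate-free and 1 against lactate-fed embryos, 5 by stage with lactate and 4 in WT against G&N. In that order it called 514 of 19610, 203 of 19613, 2324 of 19443 and 2103 of 18986 genes lower. With no filter on low counts 1 was called between H3K18R and WT, 6 by stage with lactate and 5 in WT against G&N, where requiring 10 counts in every library gave 4. Without the filter 64 of 27123 genes were called higher between H3K18R and WT. By stage with lactate 2168 of 29321 were called lower, and in WT against G&N 2050 of 28129. Requiring 10 counts gave 1509 of 13033 genes lower in WT against G&N. A fit of all 14 libraries gave 2 by stage without lactate, where 730 of 25041 genes were called lower. Leaving out 1 library also moved the counts by stage and in WT against G&N, and calls over all genes were fewer in those fits as well. A lone library left in a group is assumed to vary like the others. The cause was not tested.

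Replicate numbers did not pair the samples (correlations of deviations -0.040 to 0.007). With the replicate block 4 members were called by stage with lactate, 3 without, 2 in WT against G&N and 0 elsewhere, and the interaction of Khdc3 turned to 0.0459. By stage 753 of 19443 genes were called lower with lactate and 692 of 18604 without, and 438 of 18986 in WT against G&N.

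Other reversals were of estimates that did not pass the test. The fit of all 14 libraries gave -0.0431 for Khdc3 on late and -0.0541 for Nlrp5 on early removal of lactate, and library totals without TMM gave 0.0929 for Nlrp4f by stage without lactate, a scaling that moved the median of all genes by 0.38 and 0.37 by stage with and without lactate, by 0.11 with lactyl-CoA against lactate-free embryos, while DESeq2's size factors moved it by 0.11 by stage with lactate. Leaving out 1 library crossed 0 on late removal for Khdc3 (-0.58 to 1.17) and Padi6 (-0.67 to 0.22). On early removal it did so for Nlrp5 (-0.12 to 0.31), Ooep (-0.22 to 0.20), Tle6 (-1.19 to 0.68), Khdc3 (-0.34 to 1.02), Padi6 (-1.06 to 0.33), Zbed3 (-0.63 to 0.07) and Nlrp2 (-0.37 to 0.30). With lactyl-CoA it did so against lactate-free embryos for Padi6 (-0.28 to 0.59), and against lactate-fed ones for Tle6 (-0.82 to 0.0114), Khdc3 (-0.998 to 0.72), Padi6 (-0.52 to 0.48), Zbed3 (-0.37 to 0.0597) and Nlrp2 (-0.0377 to 0.64). Between H3K18R and WT it did so for Tle6 (-0.45 to 0.48), Khdc3 (-0.0041 to 0.66), Padi6 (-1.30 to 0.0384) and Nlrp2 (-0.22 to 3.21). In WT against G&N it did so for Tle6 (-0.29 to 0.22), Khdc3 (-0.55 to 1.24) and Padi6 (-0.73 to 0.18), by stage without lactate for Zbed3 (-0.0858 to 0.17), and in the interaction for Tle6 (-0.39 to 1.57), Khdc3 (-0.98 to 0.97) and Padi6 (-0.62 to 0.85).

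The summed level moved by more than its SD with library totals for early G&N-L (5801 CPM), late G&N-L (4890 CPM) and G&N-L + Lac-CoA (3296 CPM), and with DESeq2's size factors for late G&N (3473 CPM). The estimates for Ooep and Nlrp5 by stage kept their sign in every alternative run.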
